A study of Mus musculus with 9 samples.

Results

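The Ikaros zinc finger family comprises Ikzf1 (Ikaros), Ikzf2 (Helios), Ikzf3 (Aiolos), Ikzf4 (Eos) and Ikzf5 (Pegasus), and all 5 were found by gene symbol among the 22942 rows of the RNA table. The cells were bone marrow mononuclear cells of B6.SJL mice, a strain that carries the CD45.1 marker. The MLL-AF9 group received the retroviral construct MSCVneo-MLL-AF9 together with MSCVpuro, and the control group received the empty viruses MSCVneo and MSCVpuro, so both groups carried a neo and a puro virus. MLL-AF9 is an oncogenic fusion protein of human acute leukemia that joins the N-terminal part of MLL, a histone methyltransferase, to the C-terminal part of AF9. PolyA RNA was sequenced from 3 MLL-AF9 and 3 control libraries, although the labels' protocol speaks of duplicates, and the labels do not say whether libraries came from separate animals or cultures, or how long cells grew. The RNA table gives 1 value per gene and group in FPKM, reads per kilobase of transcript scaled to the depth of the library, so no value below has an error of its own. The remaining samples of the series, 1 input DNA and 2 DNA libraries enriched for 5-hydroxymethylcytosine, were not analysed here.

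Ikaros proteins bind DNA through zinc fingers near the N-terminus, several of them at sites with the core GGGAA, and pair with themselves and with each other through a second set of fingers near the C-terminus. They bring chromatin complexes, above all the NuRD deacetylase and remodelling complex, to lymphoid and progenitor genes. Ikaros is made throughout blood development, Aiolos mainly in maturing B cells and other lymphocytes, and Helios in stem and progenitor cells and in T cells, regulatory T cells among them. Eos is known from regulatory T cells, and Pegasus, the most divergent member, is made widely.

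Within the family 1 member rose and 1 fell. Helios (Ikzf2) rose and Aiolos (Ikzf3) fell in MLL-AF9 cells, while Ikaros (Ikzf1) and Pegasus (Ikzf5) did not pass the test and Eos (Ikzf4) was near 0 in both groups. The summed level of the 5 genes was 136 FPKM in MLL-AF9 cells and 112 FPKM in control cells. The median gene with a mean of at least 1 FPKM was also higher in MLL-AF9 cells, by 0.29 in log2(FPKM + 1). A gene was called when the authors' q-value was under 0.05 and the mean of both groups was at least 1 FPKM. By this rule 5.13% of the 11538 genes that reached the minimum rose in MLL-AF9 cells and 5.2% fell, 10.3% in all. Of the 5 members 4 reached the minimum, Aiolos by its control value alone, and 1 was called higher and 1 lower. Whether these shares differ from those of other genes was not tested.

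Ikzf1 is the founding member, needed for lymphocytes to form, and its loss is a lesion of lymphoid leukemia. It was listed at 117 FPKM in MLL-AF9 cells and 91.6 FPKM in control cells. In both groups it was by far the highest member, above 92.7% of expressed genes in MLL-AF9 cells and 91.0% in control cells. The ratio was 1.28, with p = 0.272 and q = 0.592 in the authors' deposited table. On the log2(FPKM + 1) scale, used for all differences below, its difference of 0.35 lay close to that of the median expressed gene, 0.29. The values of a gene as a whole cannot show Ikaros isoforms, some of which lack DNA-binding fingers and block the full-length protein.

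Ikzf2 encodes Helios. It was listed at 7.53 FPKM in MLL-AF9 cells and 1.51 FPKM in control cells, and so was above 29.7% of expressed genes in MLL-AF9 cells against 7.40% in control cells. The rise was 5.00-fold, a difference of 1.77 in log2(FPKM + 1), with p = 6.97e-05 and q = 0.00158 in the authors' deposited table. Relative to the median gene the difference was 1.47. It was the 267th largest of the 592 called rises on this scale. Among 1749 genes with a mean within 1.5-fold of its own, 65, itself included, were higher by at least as much.

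Ikzf3 encodes Aiolos, which acts in B cells after commitment and in plasma cell formation. It fell to 0.620 FPKM in MLL-AF9 cells, against 10.1 FPKM in control cells. Control cells thus had 16.2 times the MLL-AF9 level, a difference of -2.77 in log2(FPKM + 1), with p = 4.48e-07 and q = 2.29e-05 in the authors' deposited table. Aiolos was above 1.98% of expressed genes in MLL-AF9 cells and above 43.4% in control cells. The fall ranked 132nd by size among the 600 called falls, and 33 of 1928 genes of similar mean, itself included, fell or were lower by at least as much.

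Ikzf4 encodes Eos, a partner of Foxp3 in regulatory T cells. It was listed at 0 in MLL-AF9 cells and at 0.0907 FPKM in control cells, with p = 0.0384 and q = 1 in the authors' deposited table. It is among 397 rows with an unadjusted p under 0.05 and a q of 1, none above 0.318 FPKM in either group. Such rows lay outside the authors' adjustment, and no fold is given against a group listed at 0. Ikzf5, Pegasus, was listed at 11.0 FPKM in MLL-AF9 cells and 8.62 FPKM in control cells. Its ratio of 1.28 equalled that of Ikzf1, with p = 0.508 and q = 0.773 in the authors' deposited table, and its difference of 0.32 again lay near the median gene.

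**Figure D1:**
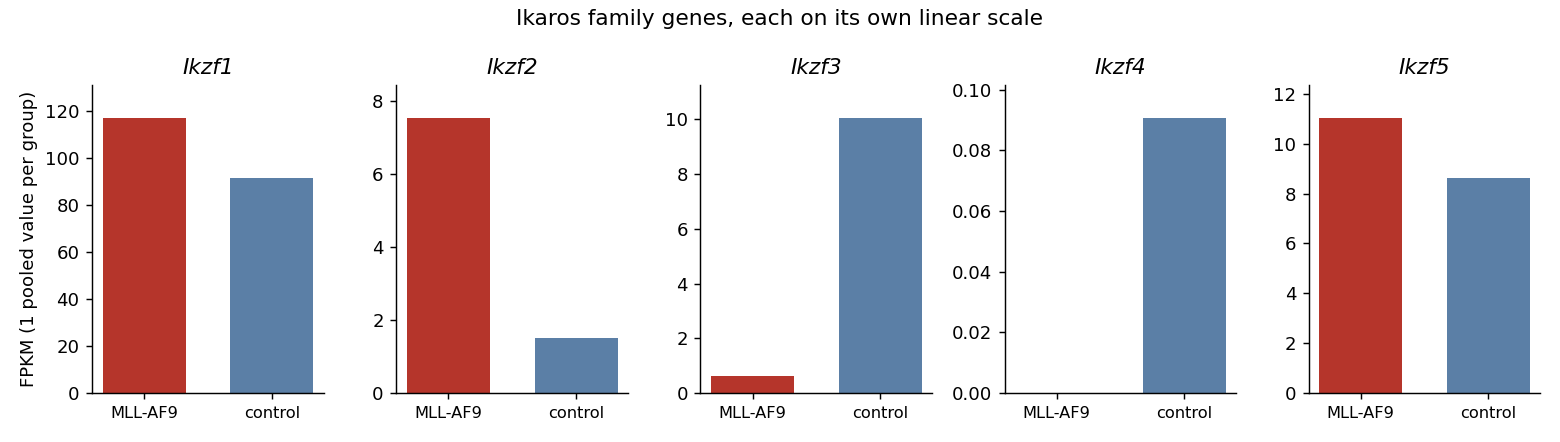
FPKM of each Ikaros family gene in MLL-AF9 cells (red) and control cells (blue), 1 pooled value per group and therefore without error bars, with a separate linear scale from 0 for each gene. Ikzf2 stands higher in MLL-AF9 cells, at 7.53 FPKM in MLL-AF9 cells against 1.51 FPKM in control cells, and Ikzf3 lower, at 0.620 FPKM in MLL-AF9 cells against 10.1 FPKM in control cells, while Ikzf1 and Ikzf5 differ by a ratio of 1.28 each.

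**Figure D2:**
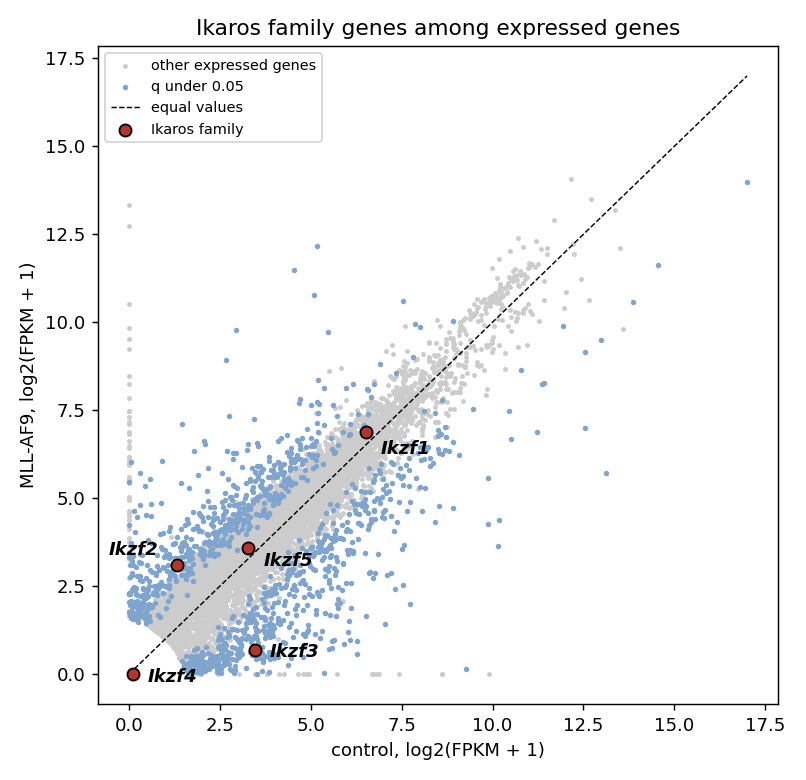
Expression in MLL-AF9 cells (vertical axis) against control cells (horizontal axis), both as log2(FPKM + 1), for the 11538 genes that reached the minimum mean of 1 FPKM (blue: q under 0.05; grey: other genes) and for the Ikaros family (red circles). Ikzf1 and Ikzf5 lie close to the line of equal values, Ikzf2 lies above it and Ikzf3 below it among the called genes, and Ikzf4 lies near 0 on both axes.

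The order of levels differed between the groups. In MLL-AF9 cells it ran Ikzf1, Ikzf5, Ikzf2, Ikzf3, Ikzf4 from high to low, and in control cells Ikzf1, Ikzf3, Ikzf5, Ikzf2, Ikzf4. Moving Aiolos alone turns one order into the other. With no spread between libraries it cannot be said which neighbours in either order differ, and the control levels of Ikzf3 and Ikzf5, 10.1 and 8.62 FPKM, are close. FPKM is per length of transcript, and on that ground these levels were set beside each other. The scaling covers length alone and the unit is inferred, so orders, shares and ratios between genes are approximate.

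Ikaros took 85.9% of the summed FPKM of the family in MLL-AF9 cells and 81.9% in control cells. Pegasus took 8.09% in MLL-AF9 cells and 7.70% in control cells. Helios took 5.53% in MLL-AF9 cells and 1.35% in control cells, whereas Aiolos took 0.455% in MLL-AF9 cells and 8.99% in control cells. The level of Ikaros was 15.5 times that of Helios in MLL-AF9 cells and 60.8 times in control cells. It was 189 times that of Aiolos in MLL-AF9 cells, compared with 9.11 times in control cells, and 10.6 times that of Pegasus in both groups. The ratio of Helios to Aiolos was 12.1 in MLL-AF9 cells and 0.150 in control cells. Helios and Aiolos together amounted to 8.15 FPKM in MLL-AF9 cells and 11.6 FPKM in control cells.

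**Figure D3:**
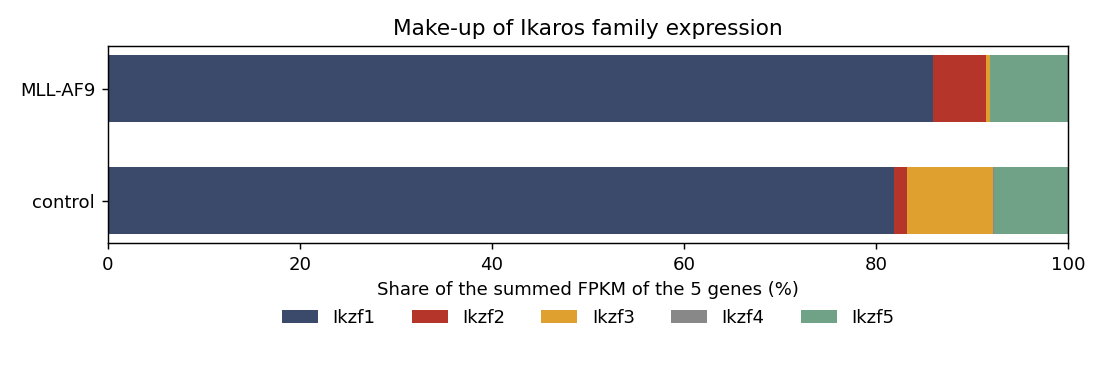
Share of each gene in the summed FPKM of the 5 Ikaros family genes, in percent, for MLL-AF9 cells (upper bar) and control cells (lower bar). Ikzf1 fills 85.9% of the MLL-AF9 bar and 81.9% of the control bar, and Ikzf3 fills 0.455% of the MLL-AF9 bar and 8.99% of the control bar.

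Promoter sequences from RefSeq, build GRCm38.p6, were at hand for Ikzf1, at 2 starts, and for Ikzf5. No window was at hand for Ikzf4 or for the called members Ikzf2 and Ikzf3, so the sequences shown do not bear on their change. Each window runs from 250 bases before to 50 bases after a start, 5′ to 3′ on the gene's strand, with capitals marking the Ikaros core GGGAA or its reverse complement TTCCC. The windows are chr11:11685675-11685974 and chr11:11689927-11690226 on the plus strand, and chr7:131410429-131410728 on the minus strand.
Ikzf1 upstream start: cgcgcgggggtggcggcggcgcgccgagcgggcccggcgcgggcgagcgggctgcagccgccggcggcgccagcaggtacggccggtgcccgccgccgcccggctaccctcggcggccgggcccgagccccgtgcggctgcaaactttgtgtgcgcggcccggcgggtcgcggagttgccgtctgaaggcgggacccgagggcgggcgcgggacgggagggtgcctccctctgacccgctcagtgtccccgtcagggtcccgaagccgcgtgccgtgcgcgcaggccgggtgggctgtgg
Ikzf1 downstream start: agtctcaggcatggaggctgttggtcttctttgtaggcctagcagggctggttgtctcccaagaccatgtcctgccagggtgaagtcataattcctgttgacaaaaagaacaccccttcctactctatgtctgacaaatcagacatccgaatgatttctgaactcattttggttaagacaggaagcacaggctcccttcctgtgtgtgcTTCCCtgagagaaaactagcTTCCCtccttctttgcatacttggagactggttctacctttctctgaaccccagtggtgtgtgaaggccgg
Ikzf5 start: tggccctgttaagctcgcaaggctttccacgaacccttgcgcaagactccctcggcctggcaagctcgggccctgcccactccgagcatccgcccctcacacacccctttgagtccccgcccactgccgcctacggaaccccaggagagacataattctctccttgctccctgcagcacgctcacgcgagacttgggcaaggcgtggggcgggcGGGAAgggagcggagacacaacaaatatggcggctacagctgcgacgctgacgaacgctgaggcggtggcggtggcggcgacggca
The upstream Ikzf1 window held 52 CG dinucleotides and the Ikzf5 window 27, against 2 in the downstream Ikzf1 window and a median of 7 over all 32851 windows. The core was found 0 times in the upstream Ikzf1 window, 2 times in the downstream one and 1 time in that of Ikzf5, on either strand, and 62.7% of all windows hold it at least once. The RNA table has 1 row per gene, so the share of RNA from each Ikzf1 start is not known. A match is a string of letters and not evidence of binding.

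Aiolos is a lymphocyte gene, and most B cell markers fell with it. Of 18 B cell markers 17 were expressed, and of these 15 fell and 0 rose in MLL-AF9 cells. By the same rule 5.2% of all expressed genes fell and 5.13% rose. For all 18 the summed level was 65.6 FPKM in MLL-AF9 cells and 865 FPKM in control cells. The B cell receptor component Cd79a was listed at 2.97 FPKM in MLL-AF9 cells and 210 FPKM in control cells (q = 8.18e-13 in the authors' deposited table), and the recombinase Rag1 at 0.0246 FPKM in MLL-AF9 cells and 6.41 FPKM in control cells. Their median difference was -3.53, against 0.29 for all genes tested, and 1 of them, Dntt, was listed at 0 in MLL-AF9 cells. The gene Il7r, a receptor of early lymphoid cells, was the B cell marker with the highest difference, at 11.1 FPKM in MLL-AF9 cells and 9.05 FPKM in control cells. In bulk RNA, fewer cells of a type and less RNA per cell cannot be told apart, and the part of B cells in the fall of Aiolos was not tested.

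Of 14 T cell markers 9 fell and 0 rose, with a median of -2.04 over the 12 expressed. Among all 11538 expressed genes 5.2% fell and 5.13% rose, with a median of 0.29. The T cell markers summed to 15.3 FPKM in MLL-AF9 cells and 125 FPKM in control cells, and none was listed at 0 in either group. The kinase Lck stood at 1.92 FPKM in MLL-AF9 cells and 16.2 FPKM in control cells, and Cd3d and Cd3g of the T cell receptor complex at 0.660 and 0.544 FPKM in MLL-AF9 cells, against 16.7 and 13.4 FPKM in control cells. Of 9 NK cell markers 4 fell and 0 rose, among them Ncr1, Tbx21 and Klrb1c, and the list summed to 18.3 FPKM in MLL-AF9 cells and 41.5 FPKM in control cells. The other 3 expressed NK cell markers did not pass, and the part of T and NK cells, which are known to make Helios, in its level was not tested.

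Markers of regulatory T cells, which make Helios and Eos, held no called gene, where 10.3% of all expressed genes were called. The list is short, and whether it differs from all genes was not tested. Of 7 markers 5 were matched, Foxp3 and Nrp1 not among them, and 3 were expressed. None of these passed the test, and 1, Il2ra, had an unadjusted p under 0.05 in the authors' deposited table. Il2ra was listed at 0.536 FPKM in MLL-AF9 cells and 2.33 FPKM in control cells. Ctla4, under the minimum mean, was listed at 0.258 FPKM in MLL-AF9 cells and 1.55 FPKM in control cells. Among the matched markers only Tnfrsf18 was higher in MLL-AF9 cells, and the others were lower. The receptor Tnfrsf18 was listed at 21.1 FPKM in MLL-AF9 cells and 13.2 FPKM in control cells, and Tnfrsf4 at 2.71 FPKM in MLL-AF9 cells and 4.96 FPKM in control cells. Of 6 plasma cell markers 4 were expressed, and only the immunoglobulin joining chain Igj was called. Igj was listed at 24.0 FPKM in MLL-AF9 cells and 268 FPKM in control cells. The secretory factor Xbp1 was listed at 121 FPKM in MLL-AF9 cells and 108 FPKM in control cells.

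Among 8 stem and progenitor markers, of which 5 were expressed, 2 rose and 0 fell in MLL-AF9 cells, and the list summed to 124 FPKM in MLL-AF9 cells and 49.1 FPKM in control cells. The surface protein Cd34 stood at 78.2 FPKM in MLL-AF9 cells and 19.3 FPKM in control cells, and the transcription factor Mecom at 4.42 FPKM in MLL-AF9 cells and 0.139 FPKM in control cells. The part of these cells in the rise of Helios was not tested. Of 5 matched megakaryocyte markers Vwf rose, at 2.04 FPKM in MLL-AF9 cells against 0.450 FPKM in control cells, and Pf4 fell, at 1.57 FPKM in MLL-AF9 cells against 12.2 FPKM in control cells. Of 6 plasmacytoid dendritic cell markers Tcf4, an E protein, rose to 68.9 FPKM in MLL-AF9 cells, against 6.30 FPKM in control cells, and Irf7 fell to 27.2 FPKM in MLL-AF9 cells, against 51.4 FPKM in control cells. Of 9 genes listed as late neutrophil markers 8 fell, among them Ltf, Retnlg and Mmp8. The list was not split by maturation stage, so the stage that was lower is not shown. Beside these counts, the shares over all 11538 expressed genes were 5.13% for rises and 5.2% for falls.

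The complexes that Ikaros proteins work through showed no called gene, but these lists are short. Over all 11538 expressed genes 10.3% were called, and 2286 had an unadjusted p under 0.05 in the authors' deposited table. Whether the lists differ from all genes was not tested. Of 12 matched NuRD genes 0 passed at a q under 0.05 and 1 had an unadjusted p under 0.05 in the authors' deposited table, with a median difference of 0.43. The most abundant were Cdk2ap1, at 116 FPKM in MLL-AF9 cells and 90.3 FPKM in control cells, and the methyl-CpG binding protein Mbd2, at 93.4 FPKM in MLL-AF9 cells and 110 FPKM in control cells. Of 5 matched Sin3 and CtBP corepressors, which also bind Ikaros, 0 passed and 0 had an unadjusted p under 0.05. Sin3b was listed at 118 FPKM in MLL-AF9 cells and 97.7 FPKM in control cells, and Ctbp1 at 95.1 FPKM in MLL-AF9 cells and 86.5 FPKM in control cells. Of 10 expressed SWI/SNF remodelling genes 0 passed and 3 had an unadjusted p under 0.05, and the median was 0.51. The DNA-binding subunit Arid1a was at 69.5 FPKM in MLL-AF9 cells and 29.2 FPKM in control cells, and Smarcd2 at 65.6 FPKM in MLL-AF9 cells and 71.2 FPKM in control cells.

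Cereblon, the substrate receptor through which lenalidomide-type drugs mark human Ikaros and Aiolos for degradation, works in the CRL4 ubiquitin ligase. Of its 6 genes 0 passed and 0 had an unadjusted p under 0.05 in the authors' deposited table, with a median of 0.24. Over all 11538 expressed genes 10.3% passed and 2286 had such a p. Whether this list or the next differs from all genes was not tested. Crbn itself was listed at 15.7 FPKM in MLL-AF9 cells and 13.4 FPKM in control cells, the adaptor Ddb1 at 91.6 FPKM in MLL-AF9 cells and 61.6 FPKM in control cells, and Rbx1 at 47.2 FPKM in MLL-AF9 cells and 46.7 FPKM in control cells. The kinase CK2 and the phosphatase PP1 set the phosphorylation of Ikaros. Of their 6 genes 0 passed and 0 had an unadjusted p under 0.05, and the catalytic subunits Ppp1ca and Ppp1cc stood at 378 and 184 FPKM in MLL-AF9 cells, against 463 and 179 FPKM in control cells.

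Notch target genes are repressed by Ikaros in developing T cells. Of 10 Notch receptors and targets 4 were expressed, and 1 of these, the target Dtx1, fell. Dtx1 was listed at 0.0634 FPKM in MLL-AF9 cells and 2.66 FPKM in control cells (q = 5.61e-06 in the authors' deposited table). For this list and the next, the shares over all 11538 expressed genes were 5.13% for rises and 5.2% for falls. Whether either list differs from all genes was not tested. Notch1 was listed at 32.5 FPKM in MLL-AF9 cells and 18.0 FPKM in control cells, and Hes1 at 0.280 FPKM in MLL-AF9 cells and 1.86 FPKM in control cells (q = 0.0859). Dtx1 is also made in B cells, whose markers fell, and their part in its fall was not tested. Helios has been tied to the Hoxa9 program in MLL-AF9 leukemia in mice. A list of Hoxa9, the C/EBP factors and other regulators, 9 genes in all, held 3 that rose and 0 that fell. Hoxa9 stood at 65.9 FPKM in MLL-AF9 cells and 0.876 FPKM in control cells. Its cofactor Meis1 stood at 42.6 FPKM in MLL-AF9 cells and 1.68 FPKM in control cells. The repressor Gfi1 stood at 65.0 FPKM in MLL-AF9 cells and 22.2 FPKM in control cells. The other 6, all C/EBP factors among them, did not pass. Of the C/EBP factors, regulators of myeloid maturation, Cebpa was listed at 39.0 FPKM in MLL-AF9 cells and 30.1 FPKM in control cells, Cebpb at 32.3 FPKM in MLL-AF9 cells and 52.6 FPKM in control cells, Cebpd at 22.1 FPKM in MLL-AF9 cells and 52.8 FPKM in control cells, and Cebpe at 83.7 FPKM in MLL-AF9 cells and 188 FPKM in control cells. Cebpd and Cebpe had an unadjusted p of 0.0190 and 0.0247, and a q of 0.123 and 0.148, in the authors' deposited table.

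**Figure D4:**
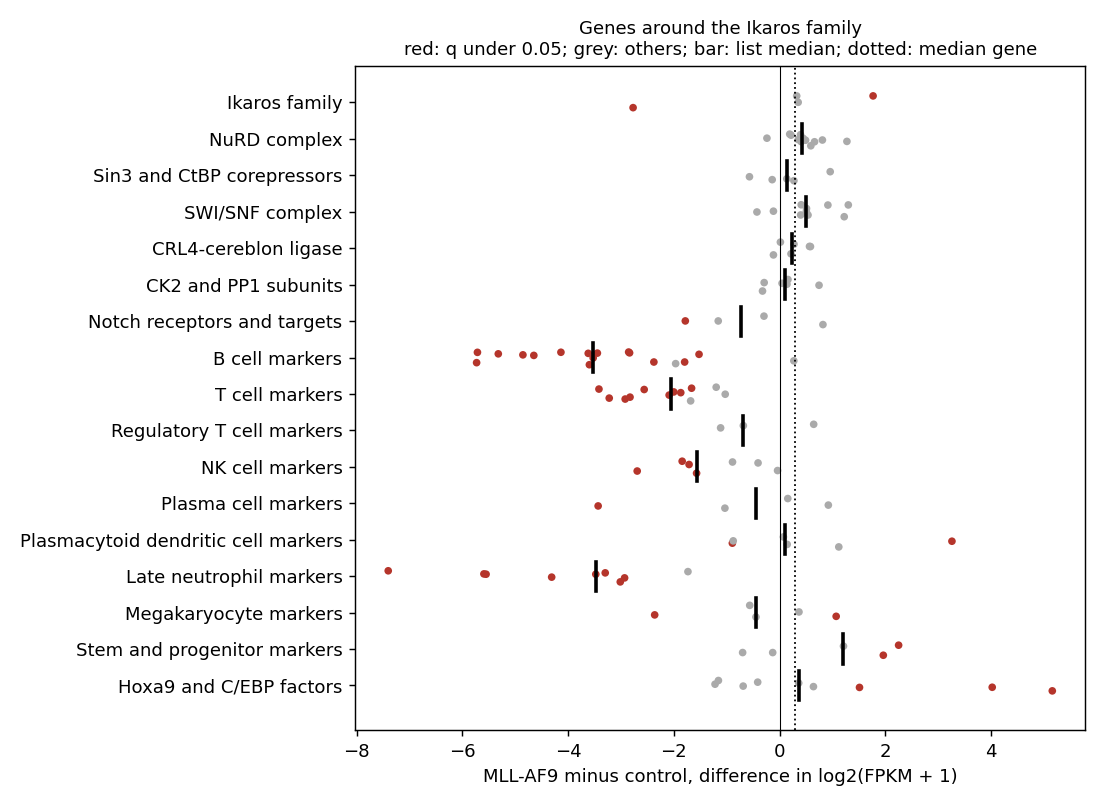
Difference in log2(FPKM + 1), MLL-AF9 minus control, of each expressed gene (point) in the Ikaros family and 16 further lists; red points have a q under 0.05, black bars are list medians, shown for the 16 further lists, and the dotted line is the median expressed gene at 0.29. B cell, T cell and late neutrophil markers lie mostly to the left in red, whereas NuRD, SWI/SNF, corepressor, ligase, CK2 and PP1 genes have no red point.

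None of the 17 expressed genes near the members on their chromosomes passed the test, where 10.3% of all expressed genes did. Whether these neighbours differ from all genes was not tested. Ikzf1 and Ikzf3 lie on chromosome 11, Ikzf2 on chromosome 1, Ikzf4 on chromosome 10 and Ikzf5 on chromosome 7. Genes of the ErbB receptor family, which includes growth factor receptor kinases, lie close by in the gene order of build GRCm38.p6: Erbb4 next to Ikzf2, Erbb2 near Ikzf3 and Erbb3 near Ikzf4. Of the 4 protein-coding neighbours on each side of every member, 40 in all, 34 were matched and 17 of these were expressed. Of these 0 had a q under 0.05, and 1, Erbb3, had an unadjusted p under 0.05, at 3.21 FPKM in MLL-AF9 cells and 0.916 FPKM in control cells (q = 0.153 in the authors' deposited table). Around Ikzf2, Erbb4 was listed at 0 in both groups, Bard1 at 7.88 FPKM in MLL-AF9 cells and 5.77 FPKM in control cells, and Lancl1 at 5.59 FPKM in MLL-AF9 cells and 4.46 FPKM in control cells. Around Ikzf3, Ormdl3 was listed at 6.99 FPKM in MLL-AF9 cells and 10.1 FPKM in control cells, and Grb7 at 0.188 FPKM in MLL-AF9 cells and 0.686 FPKM in control cells. The expressed neighbours of all members differed by -0.48 to 1.14 in log2(FPKM + 1), compared with 1.77 for Ikzf2 and -2.77 for Ikzf3. Only Lancl1 and Bard1 near Ikzf2, and Pgap3 and Ormdl3 near Ikzf3, were expressed, so this rests on few genes. These neighbours were chosen after the values of the members were seen.

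**Figure D5:**
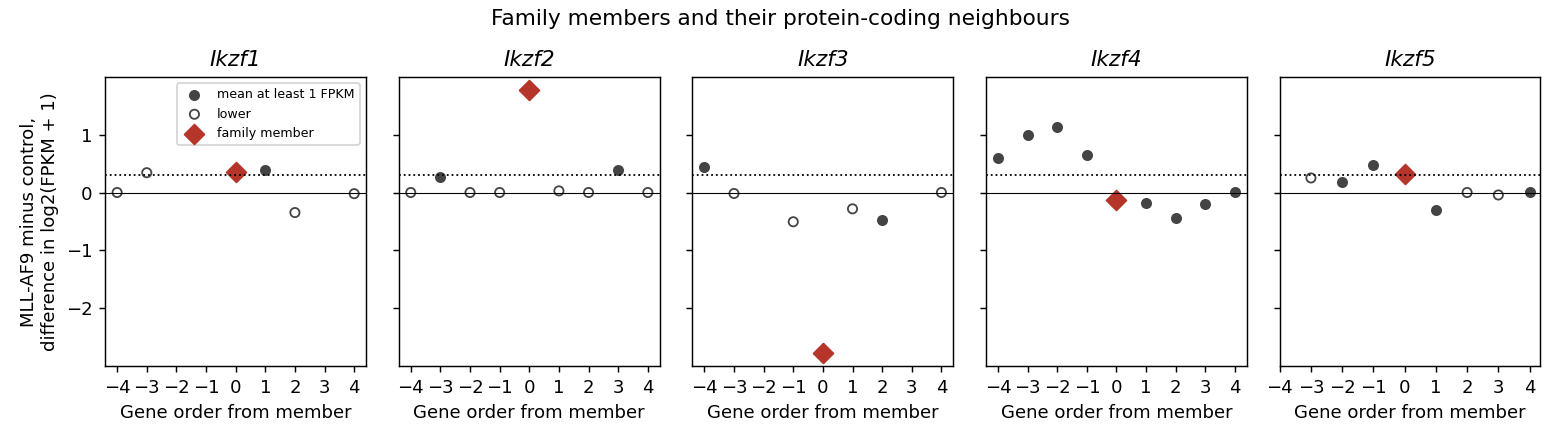
Difference in log2(FPKM + 1), MLL-AF9 minus control, of each family member (red diamond) and its matched protein-coding neighbours in gene order (filled: mean of at least 1 FPKM; open: lower), with a dotted line at the median expressed gene. Ikzf2 at 1.77 and Ikzf3 at -2.77 stand outside their neighbours, and the other members lie within the range of theirs.

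Genes with the values most like those of each member were found by the Euclidean distance in log2(FPKM + 1) over the 2 group values, which many genes must share. For Ikzf2 they were 3300005D01Rik, BC020535 and Frmd4b, at 7.74, 8.04 and 7.09 FPKM in MLL-AF9 cells, against 1.64, 1.58 and 1.39 FPKM in control cells. For Ikzf3 they were I830012O16Rik, the cell surface proteoglycan Sdc4 and Agpat9, at 0.574, 0.549 and 0.511 FPKM in MLL-AF9 cells, against 10.2, 10.1 and 9.74 FPKM in control cells. The genes nearest to Ikzf1 were Cdk2ap1, also on the NuRD list, Cuta and Idh3g, and those nearest to Ikzf5 were Pja1, Ilvbl and Klhl20, each within 0.045 of its member.

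Zinc finger genes with numbered Zfp symbols gave a background for the family. Of 351 listed 259 were expressed, and 7 rose and 1 fell, 3.09% in all, with a median difference of 0.42. The share called over all 11538 expressed genes was 10.3%, and their median difference was 0.29. Trps1, a GATA-type repressor whose C-terminal fingers resemble those of Ikaros, was named after its values were seen. It rose 2.78-fold, at 10.7 FPKM in MLL-AF9 cells and 3.84 FPKM in control cells, with q = 0.0458 in the authors' deposited table. Whether the family differs from these genes was not tested.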

How the data were processed

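PolyA RNA came from 3 MLL-AF9 and 3 control libraries. The tools in the submitters' processing notes include TopHat 1.4.1 and Cufflinks 1.3.0, with mm9 as the genome build; settings are not stated there. The table deposited by the authors has 22942 rows and 1 value for either group. Its header names no unit; the values were taken to be FPKM, computed by the authors with Cufflinks, from the tools named and the values. Each row also carries the authors' deposited p-value and q-value. Their test is not stated, and how many libraries entered each value is not known. The q-value was checked against a Benjamini-Hochberg adjustment of the p-value over the 13502 rows with a q-value under 1, and the largest gap was 2.13e-06.

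From these values were computed log2(FPKM + 1) differences, ratios and shares. Genes were called where q was under 0.05 and the mean of the 2 group values was at least 1 FPKM. No new test was possible without values per library, so limma was not run. S100a9 was dropped because control stands at 0 although its p is 1, as in a failed estimate, which left 11538 genes. Log2 differences understate the change of low genes. The library kit, per the labels' protocols TruSeq v2, does not keep strand, so overlapping genes may share reads. Read depth and spread between libraries are unknown. The members and gene lists were chosen with earlier results of these data known. Text names were taken by rule: from each list up to 3 called genes with the smallest q-value, or the highest by mean where fewer than 2 were called, and for each member the 3 genes nearest in both values; any other gene named was chosen after its values were seen. A gene that the rule takes is not reported here. Of 148 list genes, 139 were matched by symbol, 1 of them by an older symbol. The gene annotation is of build GRCm38.p6, so it was used for gene order, chromosomes and promoter sequence, and the 5hmC regions were not used here. The log2 difference, the quantile step and the Benjamini-Hochberg adjustment were tested on simulated data, which gives no test of the authors' q-values. Python 3.11.15, numpy 2.4.6, pandas 2.3.3, scipy 1.17.1 and matplotlib 3.10.9 were used.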

Additional observations from a re-analysis of the deposited data

How the results depend on the processing

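Ikzf2 and Ikzf3 stayed called at a q-value under 0.01, and, with the authors' p-values adjusted over expressed genes alone, at 0.00149 and 2.07e-05. Ikzf4 lay under the minimum and was not part of that adjustment or of centring on the median gene. Quantile normalization turned the direction of none of the 5 members, and centring turned that of none of the other 4. Pseudocounts and scalings leave the authors' q-values as they are and so give no test of the calls. The number of members called was 1 with a minimum mean of 5 FPKM, since Ikzf2 lies below it. The difference of Ikzf2 ran from 1.47 with centring to 2.25 with a pseudocount of 0.1, and that of Ikzf3 from -2.77 to -3.82. Those of Ikzf1 and Ikzf5 were 0.057 and 0.029 after centring. Of all genes, 786 were called at a q under 0.01 and 2286 at an unadjusted p under 0.05 in the authors' deposited table, against 1192 reported. List medians changed sign in 8 of 64 alternative values. These were the Sin3 and CtBP, CK2 and PP1, CRL4 and plasmacytoid lists under centring, the last 2 also under quantile normalization, and the Notch and regulatory T lists with a minimum mean of 5 FPKM. Leaving out libraries was not run, and no paired analysis was possible because the table has 1 value per group. The planned protein comparison was not run. Depth is unknown, so values under 1 FPKM, such as that of Ikzf4, carry no known precision.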
